A study of Mus musculus with 6 samples.

Results

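Sox10, Phox2a, Foxd3, Tfap2a, Tfap2b, Tlx2, Pax3 and Ets1 are 8 transcription factor genes of the neural crest, and their messenger RNA was read here in embryonic mouse gut with and without the receptor tyrosine kinase Ret. They were chosen by name as enteric neural crest regulators, with earlier results of these data known. Each was found on exactly 1 of the 23233 usable gene lines of the authors' deposited table. The series compared whole guts of stage E10.5 mouse embryos, 3 wildtype samples and 3 Ret null samples, the latter homozygous for the null allele per the series title. The strain given for all 6 is C57BL/6J, and the series title calls the embryos male. The labels name no Cre line or transgene, do not give the structure of the null allele and do not say whether a sample was 1 gut or a pool. Each genotype has 1 FPKM value per gene (fragments counted for a gene, corrected for its transcript length and for the size of the library), made by the authors from its 3 samples, so levels can be set side by side between genes but no value per sample, no spread and no read depth can be given.

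The enteric nervous system arises from vagal neural crest cells that leave the dorsal neural tube, enter the foregut and migrate along it towards the hindgut. Foxd3, the Tfap2 genes, Pax3 and Ets1 belong to the set of factors that specify crest cells. Sox10 keeps these cells as migratory multipotent progenitors, and Phox2a and Tlx2 act as the cells turn into autonomic and enteric neurons. Ret is the receptor through which GDNF reaches the migrating cells, and its loss leaves the gut below the stomach without enteric ganglia.

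Most of these factors were lower without Ret. Of the 7 members that the authors tested, 5 fell (Sox10, Tfap2b, Tfap2a, Foxd3 and Tlx2) and 0 rose, where a gene is said to have fallen or risen only at q under 0.05 in the authors' Cuffdiff test. Phox2a and Ets1 did not pass, and Pax3 was not tested. Over all 13430 tested lines 8.88% were called lower and 5.69% higher. The members were not chosen blind to these data, so these shares do not test the set. No member was higher at an unadjusted p under 0.05 or with a normal p, that is a p read from the deposited test statistic on the normal distribution, under which 4 members were lower against 2.78% of tested lines. The same 5 fell at q under 0.01, at q under 0.1, with a minimum of 1 FPKM and with a minimum of 1.5-fold, where 6.1%, 10.6%, 8.84% and 5.23% of tested lines were called lower. With a minimum of 5 FPKM in either genotype 2 of 4 members left fell, against 7.08% of lines. Sox10 and Tlx2 passed this minimum only through wildtype, as Foxd3, Tfap2a and Tfap2b passed that of 1 FPKM. These filtered counts therefore do not support the falls. The q limits of 0.01 and 0.1 and the 1.5-fold minimum could not change the member calls, given the values below. The median log2 fold change (Ret null over wildtype) of the 7 tested members was -1.53, against 0.01 over all tested lines. In the authors' deposited table q goes no lower than 0.000775, a value that 867 lines share and that each changed gene below holds unless another is given. In whole gut, fewer crest cells and less RNA per cell cannot be told apart. Nor can either be told apart from the differences in tissue markers and sex-linked genes between the same samples, given next.

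The Ret null value of the series went with its genotype label for Ret (8.80 FPKM in wildtype, 0.0354 in Ret null; q = 0.00420 in the authors' deposited table). It stood apart from wildtype in other ways that touch these genes. Xist, expressed from the inactive X chromosome of female cells, went from 0.136 to 31.8 FPKM, while the Y-linked Ddx3y, Eif2s3y, Kdm5d and Uty were lower but present (10.6, 18.1, 7.25 and 3.25 FPKM in Ret null), which goes against an all-male set. Of 12 tested somite and muscle markers 11 fell, of 12 gut epithelium markers 12 rose, and of 11 tested liver and pancreas markers 9 rose. With 1 value per genotype no result below can be recomputed with 1 library left out.

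**Figure D1:**
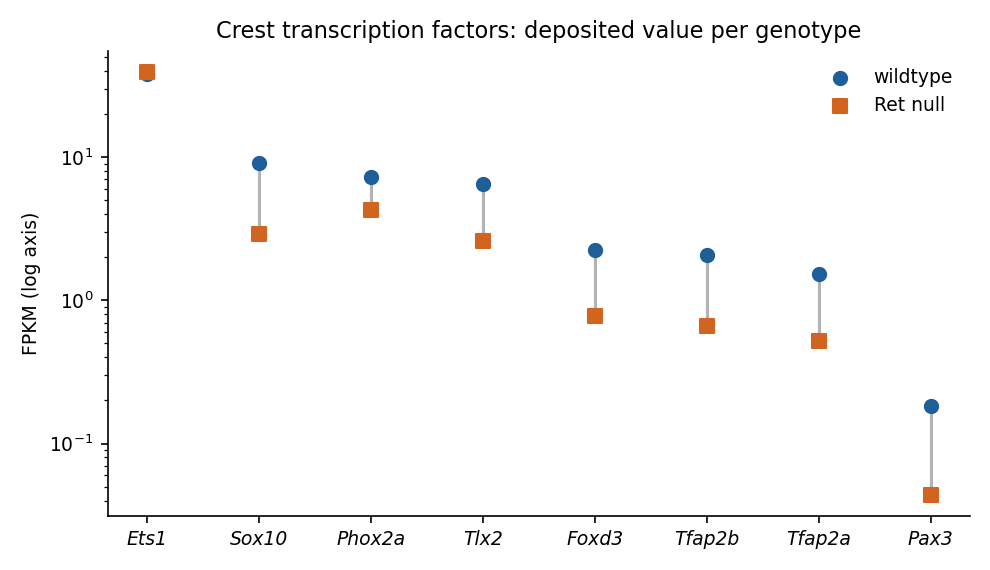
FPKM of each of the 8 members (horizontal axis, ordered by wildtype level) in wildtype (circles) and Ret null gut (squares) on a log axis, 1 deposited value per genotype and no error bar. The squares lie below the circles for every member but Ets1, whose values of 37.7 and 39.3 FPKM nearly coincide.

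The levels spanned a wide range. In wildtype gut the order from high to low was Ets1 (37.7 FPKM), Sox10 (9.15), Phox2a (7.22), Tlx2 (6.50), Foxd3 (2.24), Tfap2b (2.08), Tfap2a (1.52) and Pax3 (0.183). In Ret null gut it was Ets1 (39.3 FPKM), Phox2a (4.25), Sox10 (2.89), Tlx2 (2.58), Foxd3 (0.778), Tfap2b (0.663), Tfap2a (0.520) and Pax3 (0.0441). The order of the levels was thus the same in both genotypes apart from Sox10 and Phox2a, which changed places; no spread per genotype is available to say which neighbours differ. Ets1 alone made up 56.6% of the summed FPKM of the 8 members in wildtype and 77.0% in Ret null. The other 7 summed to 28.9 FPKM in wildtype against 11.7 FPKM in Ret null.

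Sox10, the SoxE factor of migrating crest progenitors and later of enteric glia, measured 9.15 FPKM in wildtype against 2.89 FPKM in Ret null gut. The Ret null level was 31.6% of wildtype, a log2 fold change of -1.66 ± 0.30, where the error after ± is the standard error implied by the authors' test statistic. Among the 4446 tested lines with a mean FPKM within 2-fold of that of Sox10, 0.922% had a lower log2 fold change. Its line matches the annotated gene exactly on chromosome 15, 79154913 to 79164490 (mm10). No 75-base stretch of its annotated transcripts, the length of 1 read, occurs in a transcript of another gene.

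The other SoxE genes differed from each other. Sox8, which acts beside Sox10 in crest, fell from 4.63 to 1.63 FPKM (-1.50 ± 0.35), and the log2 fold change of Sox10 minus that of Sox8 was -0.16 with a combined standard error of 0.46. Sox9, which gut mesenchyme and epithelium also express, stood at 11.2 and 9.91 FPKM (-0.18 ± 0.20) and did not pass. The log2 fold change of Sox10 was lower than that of Sox9 by 1.48, with a combined standard error of 0.36. Sox5 and Sox6, SoxD factors of crest and cartilage, fell by 0.42 and 0.64 on the log2 scale, and q was 0.0171 for Sox5 in the authors' deposited table.

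Foxd3, a forkhead repressor that maintains the undifferentiated crest state, measured 2.24 FPKM in wildtype against 0.778 FPKM in Ret null gut. Its log2 fold change was -1.53 ± 0.48, and 4.01% of the 2369 tested lines of like level had a lower one. The line matches the annotated single-exon gene on chromosome 4, 99656299 to 99658671. Of its 2250 stretches of 75 bases, 15 occur also in Gm23366, a microRNA gene annotated inside it, and in no other transcript. Foxd1 and Foxd2, of the same family and expressed in mesenchyme, fell as well, from 13.3 to 6.14 FPKM and from 3.41 to 2.06 FPKM (q = 0.0214 for Foxd2 in the authors' deposited table). Their log2 fold changes of -1.12 and -0.73 lie 0.41 and 0.80 above that of Foxd3, with combined standard errors of 0.53 and 0.59. With the normal p Foxd2 was not called (adjusted value 0.381). Foxd4 was listed at 0 in both genotypes.

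Tfap2a and Tfap2b encode AP-2 factors that act in crest induction and survival, and Tfap2b also in sympathetic neurons and kidney. Tfap2a measured 1.52 FPKM in wildtype against 0.520 FPKM in Ret null gut (-1.55 ± 0.57; q = 0.00318 in the authors' deposited table). Tfap2b stood at 2.08 and 0.663 FPKM (-1.65 ± 0.39). The pair thus fell by similar amounts, the difference being 0.10 with a combined standard error of 0.70. No 75-base stretch of the annotated transcripts of either gene occurs in a transcript of another gene, the paralog included. Tfap2a rests on the weakest evidence of the called members: with the normal p its adjusted value was 0.118, while Sox10, Tfap2b, Tlx2 and Foxd3 kept 2.93e-06, 0.00137, 0.0143 and 0.0352. Antisense RNA genes share 380 (Gm26688), 265 (Gm47061) and 73 (Gm47067) of the 4903 exonic bases of Tfap2a, and the sources used here do not say whether reads were counted by strand. The Tfap2a line, chromosome 13, 40715675 to 40733823, is shorter than the RefSeq gene, while the Tfap2b line, chromosome 1, 19208914 to 19238734, ends within 111 bases of it on either side. Of the other AP-2 genes, Tfap2c stood at 0.687 and 0.731 FPKM and was not tested, and Tfap2d and Tfap2e were listed at 0 in both genotypes.

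Sequence upstream of an annotated start is shown for the members that have a RefSeq window clear of annotated exons: Foxd3 and Tfap2b, which fell, and Phox2a, which did not pass. Each run is the 250 bases before the start, 5′ to 3′ on the strand of the gene, from RefSeq (GRCm38.p6, the build of mm10). Capitals mark matches on either strand to the motifs searched: ACAAAG and ACAATG (SOX), GCCNNNGGC (AP-2), CCGGAA (ETS), TAATTA (homeodomain), TAAT and ATTA separated by 3 bases (Phox2), GTCACG (Pax3 paired domain) and CANNTG (E-box).
Foxd3 (chr4:99656049-99656298, + strand): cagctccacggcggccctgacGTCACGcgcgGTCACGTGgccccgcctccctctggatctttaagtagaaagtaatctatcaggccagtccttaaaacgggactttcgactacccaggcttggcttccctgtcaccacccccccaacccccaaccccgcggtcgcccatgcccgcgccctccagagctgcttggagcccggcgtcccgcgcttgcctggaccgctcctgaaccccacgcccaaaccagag
Tfap2b (chr1:19211804-19212053, + strand): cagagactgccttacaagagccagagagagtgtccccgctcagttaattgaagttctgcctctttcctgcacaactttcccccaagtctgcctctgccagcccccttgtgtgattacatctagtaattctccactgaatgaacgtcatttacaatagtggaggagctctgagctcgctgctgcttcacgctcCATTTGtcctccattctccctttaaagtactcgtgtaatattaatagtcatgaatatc
Phox2a (chr7:101818063-101818312, + strand): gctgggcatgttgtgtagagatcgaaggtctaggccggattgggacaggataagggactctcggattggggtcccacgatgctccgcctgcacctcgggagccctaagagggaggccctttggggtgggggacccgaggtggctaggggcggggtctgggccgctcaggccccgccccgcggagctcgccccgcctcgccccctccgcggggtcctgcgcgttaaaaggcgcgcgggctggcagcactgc
The Foxd3 window holds GTCACG at 2 places, -229 to -224 and -219 to -214 counted from the start, the second overlapping an E-box (CACGTG, -217 to -212). Of 32851 such windows in the table, 6.93% hold GTCACG and 0.752% hold it at 2 or more places. The Tfap2b window holds an E-box (CATTTG, -58 to -53), as 66.2% of windows do, and the Phox2a window holds none of the motifs. The 250 bases before 1 of the starts of Tfap2a, not printed because they overlap exons, hold TAATTA at -32 to -27, present in 4.84% of windows. No SOX, AP-2, ETS or Phox2 match was found in these windows; those motifs occur in 16.5% (ACAAAG), 10.7% (ACAATG), 13.7% (AP-2), 12.0% (ETS) and 0.463% (Phox2) of all windows. The Foxd3 and Phox2a windows are 65.6% and 70.4% G or C, the Tfap2b window 46.4%, and the median window 52.4%. The Tfap2b window belongs to an internal RefSeq start, 3140 bases inside the deposited line, and so lies within the gene and not before its 5′ end.

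Tlx2, a homeobox gene of enteric and sympathetic neurons whose loss in mice disturbs the enteric nervous system, measured 6.50 FPKM in wildtype against 2.58 FPKM in Ret null gut. The Ret null level was 39.7% of wildtype (-1.33 ± 0.38), the smallest fall of the called members. Its line matches the annotated gene on chromosome 6, 83068325 to 83070225. Tlx1, the paralog that drives spleen formation in the mesenchyme beside the stomach, moved the other way, from 2.29 to 4.95 FPKM (1.11 ± 0.37). With the normal p Tlx1 was not called (adjusted value 0.0562), while Tlx2 was (0.0143). The log2 fold change of Tlx2 minus that of Tlx1 was -2.45, with a combined standard error of 0.53. Tlx3, of sensory neurons, stood at 0.757 and 0.374 FPKM and was not tested.

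The 5 members that fell had similar ratios on the FPKM scale as deposited. Their Ret null levels were 31.6% to 39.7% of wildtype although their wildtype levels ran from 1.52 to 9.15 FPKM. All 10 pairwise differences in log2 fold change among them were smaller than their combined standard error, the largest being 0.33 with an error of 0.48 (Sox10 and Tlx2). These errors are wide enough that unequal falls of this size could not be told from equal ones. The likeness depended on the scale: with 1 FPKM added to each value the log2 fold changes were -1.38 (Sox10), -1.07 (Tlx2), -0.89 (Tfap2b), -0.87 (Foxd3) and -0.73 (Tfap2a), which shrinks the members of lower level most.

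**Figure D2:**
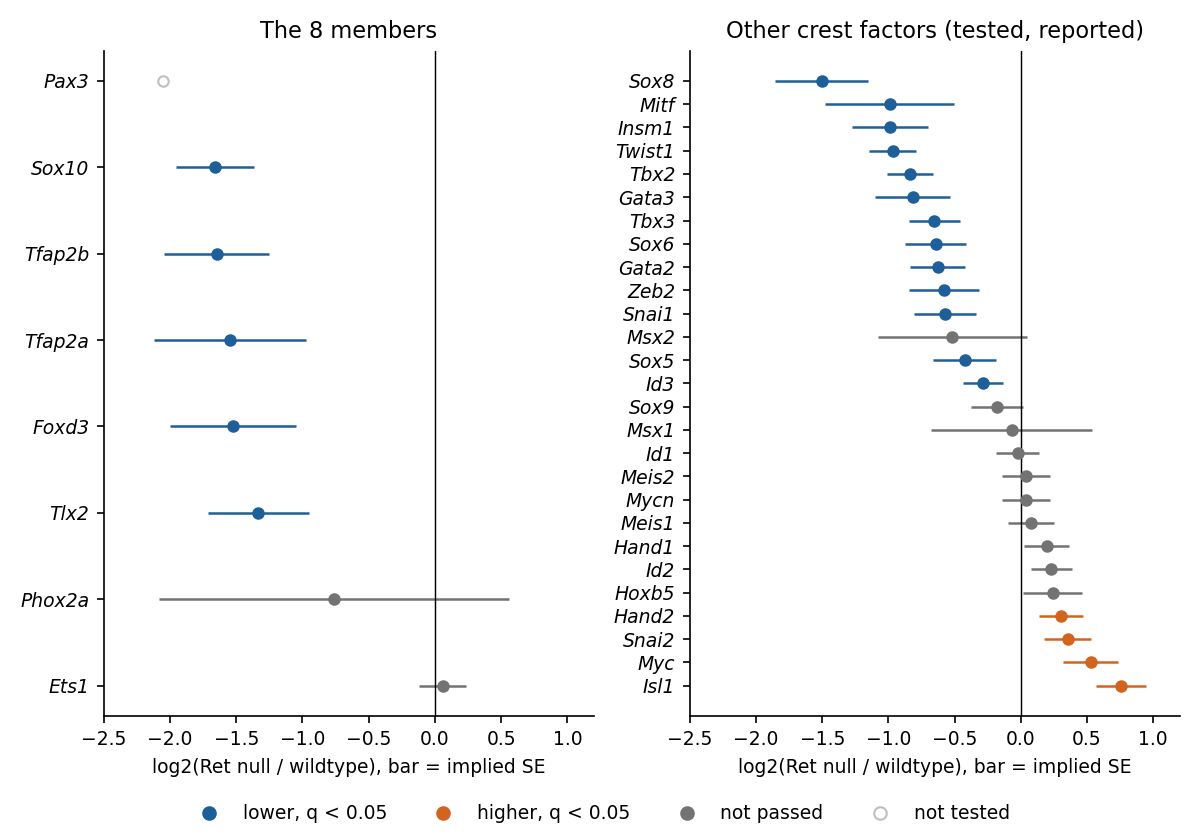
Log2 fold change, Ret null over wildtype, of the 8 members (left) and of the tested genes reported here from the list of other crest transcription factors (right); bars are the standard error implied by the authors' test statistic, filled colours mark q under 0.05 and the open circle is Pax3, which was not tested. Sox10, Tfap2b, Tfap2a, Foxd3 and Tlx2 lie between -1.66 and -1.33, the bar of Phox2a crosses 0 and Ets1 sits at 0.06.

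Phox2a, a paired-like homeobox activator of the noradrenergic enzymes in autonomic neurons, measured 7.22 FPKM in wildtype against 4.25 FPKM in Ret null gut. Its log2 fold change was -0.76 ± 1.32 (q = 0.728 in the authors' deposited table), with a 95% interval from -3.35 to 1.83 if the statistic is taken as normal. That interval holds 0 and the changes of all 5 called members, and the difference from Sox10 was 0.90 with a combined standard error of 1.35. The error is unusually large: 0.486% of the 4318 tested lines of like level had a larger one, and their median was 0.26. The Phox2a line spans chromosome 7, 101818313 to 101838226, and the same interval is given for Inppl1, a lipid phosphatase gene at 37.4 and 42.4 FPKM (0.18 ± 0.19), although the annotated Phox2a gene ends at 101822726. Inppl1 lies on the opposite strand and shares 95 of the 2035 exonic bases of Phox2a. Among the 4318 lines of like level, the 728 that share their interval with another line had a median error of 0.32 against 0.25 for the others, and 12.6% of them were called against 18.9%; the part of the shared interval in the Phox2a error was not tested. Dbh and Th, noradrenergic genes that Phox2 factors activate, fell from 27.2 to 9.13 FPKM and from 17.7 to 6.12 FPKM.

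Pax3, a paired-box factor of the dorsal neural tube and early crest that with Sox10 can activate Ret, was barely detected. It was listed at 0.183 FPKM in wildtype against 0.0441 FPKM in Ret null gut and was not tested by the authors. Its log2 ratio was -2.05, or -0.18 once 1 FPKM had been added to each value. The line matches the gene on chromosome 1, 78101267 to 78197136. Its paralog Pax7 stood at 0.604 and 0.0716 FPKM and was not tested. Both also mark the dermomyotome, and the somite and muscle markers summed to 116 FPKM in wildtype against 13.6 FPKM in Ret null gut (11 of 12 tested fell, 2 of 17 listed at 0 in wildtype and 0 in Ret null); their part in the Pax3 and Pax7 values was not tested. Of 13 neural tube genes 8 stood under 1 FPKM in both genotypes, and Wnt1, Olig2 and Atoh1 were listed at 0 in both. Of the 5 tested, Lmx1a, of the roof plate, fell from 2.15 to 0.809 FPKM, Msx1 did not pass, and 3 rose: Nkx6-1 (0.649 to 3.57 FPKM), Nkx6-2 (1.38 to 4.68 FPKM) and Mnx1 (0.367 to 2.29 FPKM), of which Nkx6-1 and Mnx1 are also genes of the pancreas. Nkx6-2 and Mnx1 had q = 0.0105 and 0.00145 in the authors' deposited table. Of these 3 genes, 2 were also higher with the normal p. The 13 genes summed to 6.49 FPKM in wildtype against 13.4 FPKM in Ret null gut. This increase came from Nkx6-1, Nkx6-2 and Mnx1, and the rest of the list summed lower in Ret null gut. The part of the 13 genes in the Pax3 value was not tested.

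Ets1, an Ets factor of cranial and cardiac crest and of endothelium, was the most abundant member and did not pass. It measured 37.7 FPKM in wildtype against 39.3 FPKM in Ret null gut (0.06 ± 0.18; q = 0.841 in the authors' deposited table). The 95% interval of its log2 fold change ran from -0.29 to 0.41 and holds none of the changes of the 5 called members. Its log2 fold change lay above those of Sox10, Tfap2b, Tfap2a, Foxd3 and Tlx2 by 1.72, 1.71, 1.61, 1.58 and 1.39. The combined standard errors were 0.35, 0.43, 0.60, 0.51 and 0.42, in that order. The line covers chromosome 9, 32696042 to 32757820, and starts 59801 bases inside the RefSeq gene, so first exons farther upstream lie outside it. Among related Ets genes, Erg and Fli1, factors of endothelium and blood, stood at 7.24 and 6.75 FPKM (-0.10 ± 0.27) and 9.05 and 7.03 FPKM (-0.36 ± 0.23) and did not pass. Ets2 rose from 22.8 to 28.7 FPKM (0.33 ± 0.18), with q = 0.0197 in the authors' deposited table. With the normal p Ets2 was not called (adjusted value 0.503). The 16 endothelial markers summed to 325 FPKM in wildtype against 281 FPKM in Ret null gut with none at 0, and 3 of them fell (Emcn, Kdr and Tek, by 0.62, 0.47 and 0.47 on the log2 scale; 0 fell with the normal p). Their part in the level of Ets1 was not tested.

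**Figure D3:**
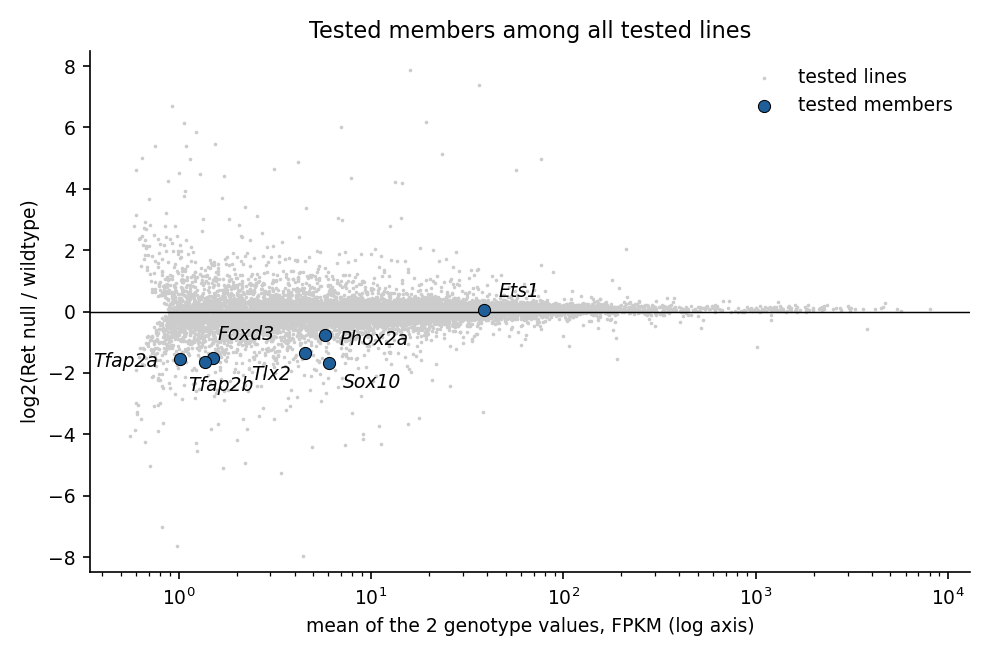
Log2 fold change, Ret null over wildtype, against the mean of the 2 genotype values in FPKM (log axis) for all tested lines above 0 in both genotypes (grey) and the 7 tested members (blue). The 5 members that fell have 0.922% to 5.17% of the lines of like level below them, and Ets1 lies within the body of the lines at 38.5 FPKM.

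Other transcription factors of crest and autonomic neurons moved in both directions. Of 28 tested genes of a list of 32, 14 fell, 4 rose and 10 did not pass, against 14.6% of all tested lines called in either direction, and the list's median log2 fold change was -0.36. Insm1, a zinc finger factor of neuroendocrine precursors, fell from 5.32 to 2.68 FPKM, and Gata3, of sympathoadrenal cells, from 5.49 to 3.11 FPKM. With the normal p Insm1 kept its call (adjusted value 0.0185) and Gata3 did not (0.0757). Among factors that mesenchyme shares with crest, Twist1 fell from 44.5 to 22.8 FPKM (-0.97 ± 0.18), Tbx2 from 38.5 to 21.6 FPKM and Tbx3 from 15.0 to 9.53 FPKM.

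The Snail pair, repressors of epithelial genes in migrating cells, split by the authors' q. Snai1 fell from 15.0 to 10.1 FPKM (-0.57 ± 0.23) and Snai2 rose from 33.6 to 42.9 FPKM (0.35 ± 0.18), with q = 0.00517 and 0.0109 in the authors' deposited table. Zeb2, a further repressor of this kind that is needed in enteric crest, fell from 15.2 to 10.2 FPKM (q = 0.00145 in the authors' deposited table). The other genes that rose were Isl1 (15.3 to 25.8 FPKM), Myc (16.8 to 24.2 FPKM) and Hand2 (46.4 to 57.3 FPKM; q = 0.0296 in the authors' deposited table), of which Isl1 and Hand2 are also genes of gut mesenchyme. Msx1, Id1, Mycn, Meis1 and Meis2 had log2 fold changes between -0.07 and 0.08 and did not pass. With the normal p Isl1 kept its call (adjusted value 0.00281). Snai1, Snai2, Zeb2, Myc and Hand2 did not keep theirs (0.203, 0.416, 0.315, 0.160 and 0.537), as Gata3, Sox5 and Sox6 did not. The list depended on the size required: a 1.5-fold minimum left 11 genes (10 lower and 1 higher) against 8.62% of tested lines, and the normal p 7 (6 lower and 1 higher) against 4.5%.

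Genes that Sox10, Pax3 and Phox2a are known to act on or with also differed among themselves. Against 8.88% of all tested lines lower and 5.69% higher, 8 of 13 tested genes fell, 2 rose and 3 did not pass. These counts leave out the members and Ret, and the median was -0.56. The falls included Cdh6 and Cdh19, cadherins of crest and Schwann precursors (-1.59 ± 0.38 and -1.60 ± 0.58; q = 0.00145 for Cdh19 in the authors' deposited table), Ngfr, the p75 receptor of crest cells (17.7 to 7.13 FPKM), and Itga4 (5.79 to 2.88 FPKM). The endothelin receptor gene Ednrb, which Sox10 activates in enteric crest, did not pass at 18.8 and 17.5 FPKM, and its log2 fold change lay 1.56 above that of Sox10 with a combined standard error of 0.35. Gfra2 (3.77 and 3.06 FPKM) and Fabp7 (8.51 and 8.66 FPKM) did not pass either. Erbb3, the neuregulin receptor of crest and glia, fell by 0.38 ± 0.24 on the log2 scale (q = 0.0484 in the authors' deposited table). Gfra1 and Kit, which gut mesenchyme and other cells also express, rose by 0.92 and 0.42. For Kit q was 0.00263 in the authors' deposited table. Cdh19, Erbb3 and Kit were not called with the normal p (adjusted values 0.105, 0.710 and 0.280). By that measure 5 of the 13 genes fell and 1 rose, against 4.5% of tested lines called in either direction.

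**Figure D4:**
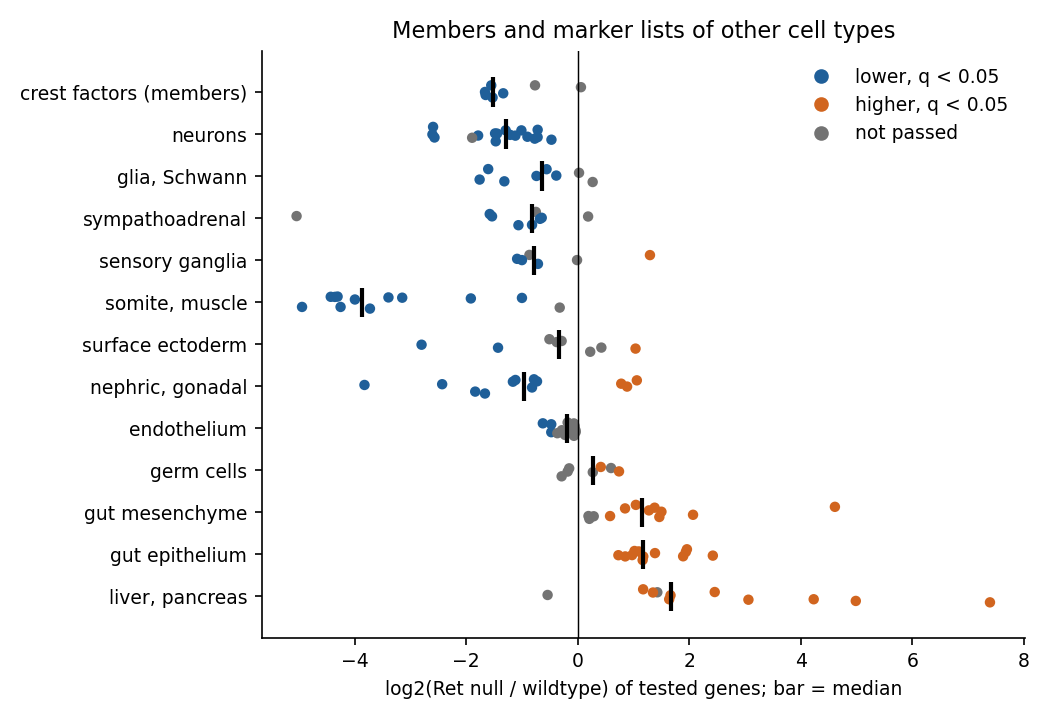
Log2 fold change, Ret null over wildtype, of the tested genes of the members and of 12 marker lists (rows); each point is 1 gene, coloured by the authors' call, and the black bar is the list's median. The members' median of -1.53 lies near that of neurons (-1.29), between somite and muscle (-3.86) and endothelium (-0.20), while gut mesenchyme and epithelium lie at 1.16 and 1.17.

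Markers of cells in which crest factors also occur were read beside these values. Of 17 neuronal markers 16 fell (median -1.29) and they summed to 222 FPKM in wildtype against 108 FPKM in Ret null gut. The called glial and Schwann markers numbered 6 of 8 tested, all lower (median -0.65, sums of 57.0 and 36.0 FPKM), while S100b and Gfap, markers of mature glia, stood under 1 FPKM in both genotypes. Of 9 tested sympathoadrenal markers 6 fell (median -0.82, sums of 122 and 67.0 FPKM). Of 8 surface ectoderm markers, cells in which Tfap2a is also expressed, 2 fell (Krt5 from 7.18 to 1.03 FPKM and Krt14 from 5.97 to 2.22 FPKM) and 1 rose (Esrp1), and the list summed to 27.5 and 22.6 FPKM. Of 12 tested nephric and gonadal markers, cells in which Tfap2b is also expressed, 9 fell and 3 rose (median -0.97), with sums of 144 and 117 FPKM. Of 7 tested markers of germ cells and pluripotency, a state in which Foxd3 also acts, 2 rose (Kit and Sall4), with sums of 33.1 and 40.9 FPKM. No gene of these 6 lists was at 0. With the normal p 12 neuronal, 3 glial and Schwann and 3 sympathoadrenal markers fell. By the same measure 7 nephric and gonadal markers fell and 2 rose, and 2 surface ectoderm markers fell and 1 rose. No marker of germ cells and pluripotency was called by it. In the melanocyte list, where Sox10 and Pax3 act upstream of Mitf, 5 of 6 genes stood under 1 FPKM in both genotypes, and Mitf fell from 1.08 to 0.543 FPKM (q = 0.0113 in the authors' deposited table). Mitf was not called with the normal p (adjusted value 0.407). The part of any of these cells in the members' values was not tested.

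The genes most like each member over the 2 genotype values, by distance on the log2 FPKM scale, matched in level and change only. For Sox10 they were Tmem184a, Meox1 and Defb19, for Foxd3 Irx5, Lmx1a and Ryr1, and for Tlx2 Thy1, Nell1 and Uhmk1. For Tfap2a they were Ltf, Fam184b and Kcnh1, for Tfap2b Riiad1, Mc2r and Camp, for Phox2a Tppp3, Vat1l and Slc36a4, and for Ets1 they included Polr2i and Carhsp1. Riiad1 and Camp did not pass, unlike Tfap2b, while Tppp3, Vat1l and Slc36a4 fell, unlike Phox2a. With 2 values per gene such likeness is common for a gene that hardly moved: 554 lines lay within 0.25 of Ets1, against 5 lines for Sox10 and 5 for Tfap2b.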

How the data were processed

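Per the labels' protocols, guts were dissected at E10.5 and polyadenylated RNA was sequenced after Illumina TruSeq preparation. The submitters' processing notes list Picard, TopHat2, Cufflinks, Cuffdiff and mm10, with no version or setting. The FPKM values, 1 per genotype from 3 samples each, were made by the authors. The p-value, q-value, log2 ratio and test statistic (a score) were deposited by the authors per the file headers. The columns name the genotypes w and h, read as wildtype and homozygous null. Of 23234 lines, 1 with 2 records run together was not used. The deposited log2 column holds error text in 590 cells, so log2 fold changes were recomputed from FPKM, and implied standard errors are these divided by the statistic. Depth is unknown. The test was the authors' q under 0.05 over 13430 tested lines. The normal p was adjusted by Benjamini-Hochberg over the 13422 lines with a finite statistic. The adjustment was tested on simulated normal statistics, which cannot show whether the deposited statistic is normal. Nothing says that samples came from separate litters, so p-values may measure technical spread. Intervals, motif searches and overlaps used Python 3.11.15 (scipy 1.17.1), RefSeq GRCm38.p6 and GENCODE on the same build. Named genes were the members, Ret, genes of 3 related lists, up to 4 called genes per marker list and the 3 lines nearest each member; 2 genes that this rule names are not reported here. Genes named outside this rule (Xist, the Y-linked genes, Inppl1, genes listed at 0 or under 1 FPKM) were chosen after their values were seen. The members and lists were chosen with earlier results of these data known.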

Additional observations from a re-analysis of the deposited data

How the results depend on the processing

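The 5 member calls were the same genes at q under 0.01 or 0.1, with a 1 FPKM minimum and with a 1.5-fold minimum. None of these settings could change them. The called members had q of 0.00318 or less and fell at least 2.52-fold, and the other tested members had q of 0.728 and 0.841. Every tested member stood above 1 FPKM in wildtype. A minimum of 5 FPKM in either genotype left 4 members to test, because Foxd3, Tfap2a and Tfap2b lie under it. Of these 4, 2 fell (Sox10 and Tlx2). Both passed the minimum only through wildtype, so this count does not support their fall. With the normal p 4 members fell, Tfap2a being lost (adjusted value 0.118), and the cause was not tested. Of the other crest transcription factors 18 were called; a 1.5-fold minimum left 11 and the normal p 7, and the cause of the latter was not tested. Adding 1 FPKM moved the log2 fold changes of Foxd3, Tfap2a and Tfap2b to -0.87, -0.73 and -0.89, beyond their errors; adding 0.1 FPKM gave -1.41, -1.39 and -1.51. Adding the same value to both genotypes cannot change the sign of a log2 fold change. Subtracting a median shifted values by 0.01 and, within classes of like expression, by at most 0.13, which could not reverse a called member. No paired analysis was possible because the deposited columns carry 1 value per genotype and no replicate numbers; for the same reason no sample could be left out. Low FPKM limits Pax3, Tfap2a, Tfap2b and Foxd3.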
